A study of Homo sapiens with 17 samples.

Results

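BCR and ABL1, the 2 partners of the BCR-ABL1 fusion, and 8 genes of the signalling that runs from it were followed in K562, a chronic myeloid leukaemia line of human origin that carries the fusion, across 17 libraries. The members were named as a list: BCR and ABL1, the adaptors CRKL and GAB2, the transcription factors STAT5A and STAT5B, the STAT5 target genes PIM1, BCL2L1 and SOCS2, and the transcription factor MYC. They are 10 of the 57638 genes to which reads could be assigned, and all 10 had reads in at least 1 library. The level of a gene in a library is the sum of the estimated read counts of its transcripts, divided by all reads in genes and given per 1e6 reads (CPM).

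BCR-ABL1 joins the front of BCR to the kinase part of ABL1, and the joined protein is a tyrosine kinase that is always on. It phosphorylates CRKL and recruits GAB2, a docking protein through which the RAS and PI3K pathways are engaged, and it keeps the STAT5 proteins active. STAT5 in turn drives PIM1, BCL2L1, which encodes the survival protein BCL-XL, and SOCS2, a feedback inhibitor of cytokine signalling. MYC sits downstream of the same kinase and drives genes of growth and ribosome production.

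CRISPR plasmids, designed to switch on the gene in the label where it names one, were brought into the cells by electroporation, an antisense oligonucleotide (ASO) followed, and RNA was taken on day 6. All groups share the K562 line, the electroporation and the ASO treatment, and the labels give neither the guides nor the ASO sequence. The groups with replicates were GOLGA8N plasmids (libraries GOLGA8N 1, GOLGA8N 2 and 23-GOLGA8N) and LAPTM4B plasmids (LAPTM4B 1, LAPTM4B 2 and 22-LAPTM4B). Set against them were 3 libraries whose plasmid label names no human gene (Neg, GFP and RFP), each a different label. The labels TTR, TRPC5OS, E7, ADORA2A, UBE2V1, COL6A6, 20-ARSF and 21-CTPS2 had 1 library each and no replicate. What Neg and E7 stand for is not given, and E7 was left outside the group of Neg, GFP and RFP. Titles of 4 libraries carry a number before the gene name, from 20 to 23, and those of the other 13 do not; the labels do not say what the number stands for. Nor do they say whether replicate libraries are separate cultures; a p-value here sets a difference against the spread among these libraries alone, and that spread may be technical.

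Library totals ran from 569057 reads in GFP to 4236396 in 20-ARSF, with 2252097 in the next lowest library, 23-GOLGA8N. GFP also stood apart in its profile, with a median rank correlation to the other libraries of 0.782, against 0.862 to 0.894 for the remaining libraries, so members' results against Neg, GFP and RFP are given with and without it. The labels call the cells lymphoblasts. The 13 erythroid genes that K562 is known to transcribe summed to between 5610 and 10202 CPM, while the 7 B-lymphoid markers summed to between 0.249 and 9.47 CPM, with MS4A1 and CD79B at 0 reads in every library. The 6 T-lymphoid markers summed to between 38.6 and 123 CPM, most of it CD3D at 65.8 ± 23.8 CPM (SD), with CD3E, CD2 and CD8A at 0 reads. Of the plasmids' own targets, LAPTM4B had 189 ± 29.7 CPM in the 3 LAPTM4B libraries and 227 ± 43.3 CPM in the other 14 (SD), and GOLGA8N was at or under 0.318 CPM in every library. The gene with the lowest p in GOLGA8N libraries was AC091057.3, with 47.9 ± 29.7 CPM in GOLGA8N libraries and 0.800 ± 0.614 CPM in Neg, GFP and RFP (log2 6.45 ± 0.885, edgeR adjusted p 0.00540).

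The promoters of BCR, ABL1 and PIM1 are shown for reference, and no level was set against them. The fusion is transcribed from the promoter of BCR, unfused ABL1 from that of ABL1, and PIM1 was the member with the highest level. Each run is 300 bases on the plus strand of GRCh38.p14, from 250 bases before to 50 bases after the RefSeq start, with every GGGCGG (the GC box) and its reverse complement in capitals. They lie at chr22:23180259-23180558, chr9:130835004-130835303 and chr6:37169902-37170201. The ABL1 run lies near the start of ABL1-201, at base 130835066, while ABL1-202 and ABL1-203 start upstream of it, at 130713946 and 130713980.
BCR: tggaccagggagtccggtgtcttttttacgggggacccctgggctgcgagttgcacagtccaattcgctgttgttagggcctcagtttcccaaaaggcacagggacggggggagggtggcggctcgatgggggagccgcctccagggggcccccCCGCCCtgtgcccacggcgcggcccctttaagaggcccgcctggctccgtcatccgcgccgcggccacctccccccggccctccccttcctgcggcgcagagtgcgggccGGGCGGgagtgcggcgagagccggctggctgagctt
ABL1: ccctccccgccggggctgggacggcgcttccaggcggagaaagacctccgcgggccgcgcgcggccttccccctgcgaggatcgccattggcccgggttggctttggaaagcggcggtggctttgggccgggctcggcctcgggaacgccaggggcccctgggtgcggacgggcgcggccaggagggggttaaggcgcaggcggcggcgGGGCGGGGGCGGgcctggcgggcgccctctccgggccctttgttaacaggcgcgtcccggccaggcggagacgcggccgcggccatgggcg
PIM1: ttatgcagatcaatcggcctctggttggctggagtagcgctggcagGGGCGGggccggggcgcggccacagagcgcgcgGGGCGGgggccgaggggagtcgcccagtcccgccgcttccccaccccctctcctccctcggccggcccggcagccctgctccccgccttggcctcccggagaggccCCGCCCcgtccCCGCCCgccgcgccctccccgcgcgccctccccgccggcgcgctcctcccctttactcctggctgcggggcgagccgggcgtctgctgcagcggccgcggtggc
G and C made up 71.7% of the BCR promoter, 78.3% of that of ABL1 and 79.7% of that of PIM1, against a median of 58.7% over 35116 RefSeq promoters of the same length. RefSeq gave 12 promoters for 8 of the members, and 7 of the 12 held GGGCGG on either strand, against 44.95% of all promoters. TTCNNNGAA, the letters STAT proteins are known to prefer, was in 0 of the 12 and in 7.66% of all, and CACGTG, the E-box that MYC binds with MAX, was in 0 of the 12 and in 7.26% of all. These are matches of letters in a window and were not read further. SOCS2 and MYC have no entry in the table.

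Members covered a wide range of levels, with PIM1 at the top and reads named MYC at the bottom (the plot of levels by library). The place of MYC depends on the annotation. Summed with ENST00000652288.1, a transcript described below that shared reads with MYC-207, MYC averaged 24.2 CPM over 17 libraries. That mean lay below the mean CPM of GAB2 and above those of STAT5B and BCR. By the deposited TPM, which divides by transcript length, PIM1 averaged 28.3 ± 6.25, CRKL 22.7 ± 3.31, STAT5A 14.5 ± 3.35, BCL2L1 11.9 ± 2.70 and ABL1 11.0 ± 1.94 (SD over 17 libraries). SOCS2 followed at 6.66 ± 1.70 TPM, GAB2 at 2.28 ± 0.724, STAT5B at 1.17 ± 0.502, BCR at 0.754 ± 0.578 and MYC at 0.0587 ± 0.150 TPM. The gaps between PIM1 and CRKL, between STAT5A and BCL2L1, between BCL2L1 and ABL1 and between STAT5B and BCR were smaller than the larger SD of each pair, so their spread over libraries overlapped. Within libraries PIM1 exceeded CRKL in 16 of 17, STAT5A exceeded BCL2L1 in 11, BCL2L1 exceeded ABL1 in 12 and STAT5B exceeded BCR in 14. In 3′ tag libraries reads come from the ends of transcripts whatever their length, and without division by length, in CPM, ABL1 was at rank 2 of the 10 members, against rank 5 in TPM. CRKL was at rank 4 in CPM, against rank 2 in TPM, and BCL2L1 at rank 5, against rank 4. TPM sums also weigh reads on short transcripts more: GAB2 in Neg was the highest of 17 by TPM, at 3.63, while by CPM it was at rank 16 of 17, at 23.8.

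**Figure D1:**
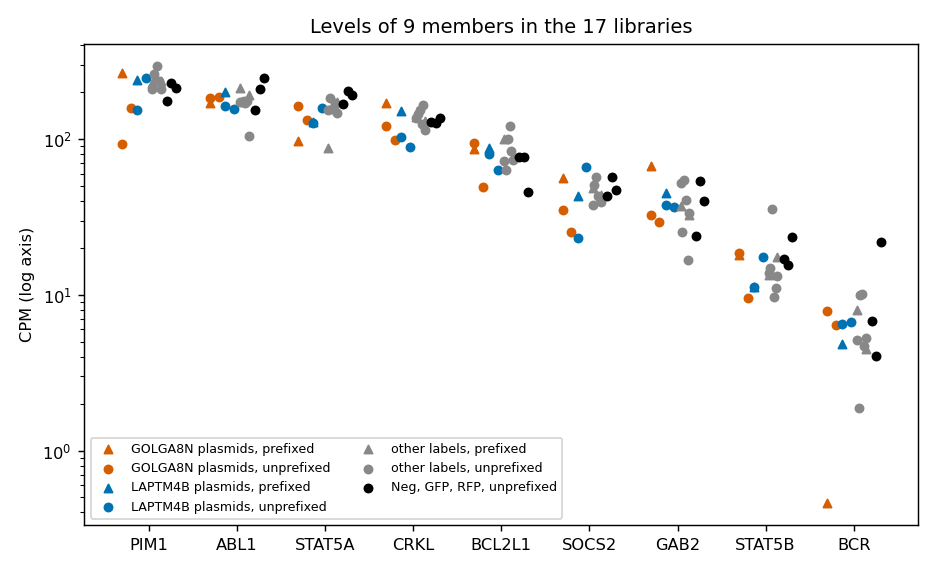
Each point is 1 of 17 libraries, with the member's level in CPM on a log axis and the members ordered by mean CPM; colours mark the plasmid label and triangles the 4 libraries with a number before the gene name. MYC is left out because it had 0 reads in 13 libraries; the lowest point is BCR in 23-GOLGA8N, at 0.460 CPM on 1 read.

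ABL1 (chr9:130713946-130887675, plus strand, GRCh38) encodes the kinase itself. The fusion transcript ends at the end of ABL1, so 3′ tags of ABL1 count fused and unfused transcripts together and cannot be split. Nearly all its reads, 99.98%, were assigned to ABL1-201, whose end is the end of the gene. Over 17 libraries ABL1 ranged from 105 CPM in COL6A6 through a median of 176 to 245 CPM in GFP. COL6A6 lay 3.36 SDs below the other 16 libraries, at 105 CPM, against 184 ± 23.7 CPM in them (SD). COL6A6 is a single library, and the difference has no replicate check.

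BCR (chr22:23179704-23318037, plus strand, GRCh38) encodes a protein with its own kinase and exchange-factor activity, and its tags mark transcripts that keep the end of BCR. Its level was low: 316 reads in all 17 libraries, from 0.460 CPM in 23-GOLGA8N through a median of 6.37 to 21.8 CPM in GFP. The lowest value rests on 1 read, with an exact Poisson interval of 0.0116 to 2.56 CPM, and the highest on 12 reads, with one of 11.3 to 38.1 CPM; both intervals cover counting error only. Leaving GFP out took the mean to 5.82 ± 2.58 CPM, against 6.76 ± 4.62 CPM with it (SD). Of BCR's reads 82.3% were assigned to BCR-205, a transcript annotated as non-coding (a processed transcript) that spans the last part of the gene and ends 3 bases from its end, and 7.40% to the coding BCR-201. BCR's reads summed to whole numbers, within 0.01 reads, in only 2 of 17 libraries, so some were shared out between BCR and other transcripts. FBXW4P1, a pseudogene inside BCR on the same strand, had 1.52 CPM. It lies at 23262767-23265005, before the start of BCR-205 at 23309474.

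ABL1 exceeded BCR in 17 of 17 libraries. The ratio of ABL1 to BCR had a median of 26.9 in CPM, from 11.3 in GFP to 373 in 23-GOLGA8N, where BCR had its single read. In TPM the median ratio was 17.8, from 5.79 in RFP to 69.3 in TRPC5OS. Both ratios set a pool of fused and unfused transcripts against the unfused partner.

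CRKL (chr22:20917426-20953749, plus strand), an SH2- and SH3-domain adaptor and a direct substrate of the fusion kinase, was among the steadiest members. It ranged from 88.8 CPM in LAPTM4B 2 through a median of 132 to 171 CPM in 23-GOLGA8N, a span of 1.93-fold. Of its reads, 96.5% were assigned to CRKL-202, annotated as subject to nonsense-mediated decay, whose end lies 2 bases from that of the coding CRKL-201, so tags do not tell the 2 apart well.

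GAB2 (chr11:78215297-78418348, minus strand), the docking protein that links the fusion to PI3K and SHP2, varied more, from 16.7 CPM in UBE2V1 through a median of 37.4 to 67.1 CPM in 23-GOLGA8N. 23-GOLGA8N lay 2.80 SDs above the other 16 libraries, at 67.1 CPM, against 37.0 ± 10.8 CPM in them. GAB2-201 took 81.6% of the reads and GAB2-202 17.9%; both end at the same base, and the share of either ranged between 0 and nearly 100% over the libraries.

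STAT5A (chr17:42287547-42311943, plus strand) and STAT5B (chr17:42199168-42276707, minus strand) are neighbouring genes for closely related transcription factors. STAT5A exceeded STAT5B in 17 of 17 libraries, with a median ratio of 13.8 in TPM, from 5.27 in E7 to 21.9 in UBE2V1. STAT5A ranged from 87.1 CPM in 21-CTPS2 through a median of 157 to 203 CPM in RFP, and its sum was whole in 16 of 17 libraries. STAT5B ranged from 9.55 CPM in GOLGA8N 2 through a median of 14.8 to 35.7 CPM in E7. E7 lay 5.47 SDs above the other 16 libraries for STAT5B, at 35.7 CPM on 143 reads, against 14.7 ± 3.83 CPM in them, while for STAT5A E7 had 156 CPM and lay inside their range. STAT5B sums were whole in 12 of 17 libraries, and a same-strand transcript inside its intron, AC099811.1, had 2.26 CPM.

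PIM1 (chr6:37170203-37175426, plus strand), a serine/threonine kinase induced by STAT5, had 11070 reads in all, every one of them assigned to PIM1-201. It ranged from 93.3 CPM in GOLGA8N 1 through a median of 231 to 296 CPM in ADORA2A. GOLGA8N 1 lay 3.47 SDs below the other 16 libraries, at 93.3 CPM, against 225 ± 37.9 CPM in them. BCL2L1 (chr20:31664452-31723989, minus strand) ranged from 45.5 CPM in GFP through a median of 77.2 to 122 CPM in ADORA2A, so ADORA2A held the highest value of both. Every read of BCL2L1 was assigned to BCL2L1-202. SOCS2 (chr12:93569814-93583487, plus strand) had both its extremes under the same plasmid label, 23.3 CPM in LAPTM4B 1 and 66.4 CPM in LAPTM4B 2, with a median of 43.4 CPM over 17 libraries. SOCS2-AS1, an antisense gene that overlaps its start, had 3.30 CPM, and the sources used here do not state whether counting used strand. SOCS2-AS1 reaches to base 93571768, short of SOCS2-210, which starts at 93571906 and took 87.1% of the reads of SOCS2.

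MYC (chr8:127735434-127741434, plus strand) was near absent under its own name: 30.2 reads over 17 libraries, with 0 reads in 13. The floor of 3 reads corresponds to between 0.733 and 5.45 CPM per library. Reads named MYC stood at 4.61 CPM in E7, 2.57 in RFP, 0.539 in TTR and 0.531 in 22-LAPTM4B. This value depends on the annotation. In the files the transcript MYC-207 is 3882 bases long and at version 6, against 2366 bases and version 5 in the annotation used here. In 22-LAPTM4B, TTR and E7 the estimated count of MYC-207 was fractional, and in all 3 it summed to a whole number, within 0.01 reads, with ENST00000652288.1, a transcript that has no gene in that annotation. That transcript held 1199 reads in all, 23.7 ± 7.60 CPM, from 11.2 CPM in LAPTM4B 1 to 36.3 in 21-CTPS2 (the stacked plot of both). Its sum with MYC was 24.2 ± 7.51 CPM (SD over 17 libraries). No other member shared fractional reads with an unannotated transcript in this way. The near-zero level of MYC is not read here as a low level of MYC RNA.

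**Figure D2:**
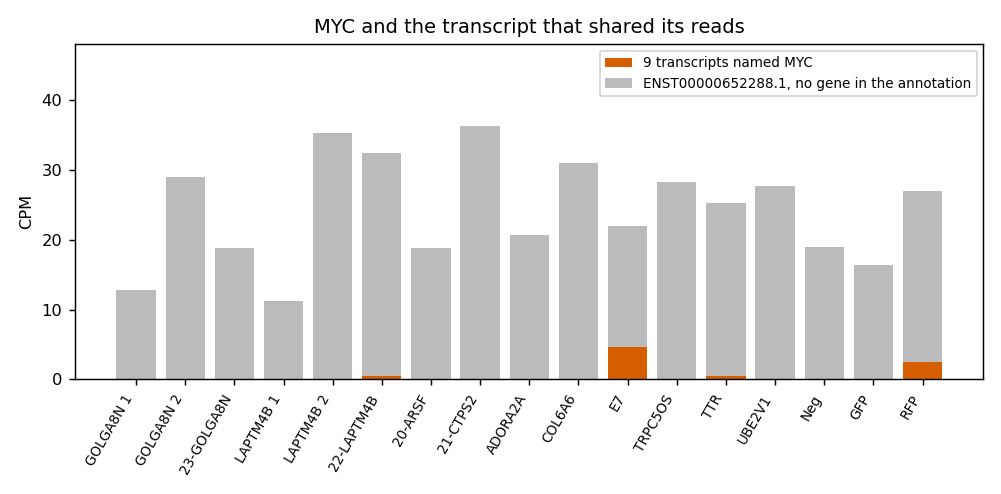
Stacked bars give, for each of the 17 libraries, the CPM of the 9 transcripts named MYC and of ENST00000652288.1, which shared reads with MYC-207 and has no gene in the annotation used. The named MYC part is visible in E7 and RFP, at 4.61 and 2.57 CPM, while the sum runs from 11.2 to 36.3 CPM.

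Whether the plasmids shifted the fusion's signalling genes was asked first with GOLGA8N against Neg, GFP and RFP, by edgeR's quasi-likelihood test over 11916 genes with Benjamini-Hochberg adjustment. MYC did not pass the filter on low counts, so 9 of the 10 members were tested in this and the next comparisons. Of the 9, 0 were called at an adjusted p under 0.05, and 0 had an unadjusted p under 0.05; DESeq2 and limma-voom also called 0. Over all genes 2 were called, 0.0168%, and 677 had an unadjusted p under 0.05, 5.68%. The members' log2 fold changes were higher for 3 and lower for 6, with a median of -0.10, against 0.008 over all genes tested, of which 50.7% were higher.

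STAT5A was the member whose groups did not overlap in CPM. Its CPM were 164 in GOLGA8N 1, 133 in GOLGA8N 2 and 97.5 in 23-GOLGA8N, against 168, 193 and 203 CPM in Neg, GFP and RFP. In these CPM, scaled by library totals alone, all GOLGA8N libraries lay below all 3 of the others. The fit also scales libraries by TMM factors, at 1.1 in Neg, 1.17 in GFP, 1.06 in RFP and 0.973 in GOLGA8N 1. Divided by these factors, GOLGA8N 1 lay above Neg, so the separation holds in unscaled CPM only. In unscaled CPM, groups did not overlap for 11.8% of all genes tested, and for 8.03% with the GOLGA8N libraries lower. The log2 fold change was -0.36 ± 0.214 (SE), with an adjusted p of 0.924 by edgeR's quasi-likelihood test (-0.36 without GFP). Without 23-GOLGA8N it was -0.18. For STAT5A, RFP and GFP stood at ranks 1 and 2 of the 17 libraries by unscaled CPM. The 6 unprefixed labels with 1 library each averaged 161 ± 12.8 CPM (SD), from 148 to 183 CPM. Neg, GFP and RFP averaged 188 ± 18.1 CPM. Both means are unscaled, and the TMM factors of Neg, GFP and RFP were the 3 highest of the 17, which lowers their scaled levels.

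PIM1 stood at 93.3 CPM in GOLGA8N 1, 159 in GOLGA8N 2 and 265 in 23-GOLGA8N, against 176, 213 and 229.6 CPM in Neg, GFP and RFP. The GOLGA8N libraries reached both below and above the other 3, and the log2 fold change was -0.11 ± 0.293 (SE), and -0.11 without GFP. SOCS2 had 35.1, 25.2 and 56.1 CPM in the same GOLGA8N libraries, against 43.4, 47.3 and 57.5 CPM in Neg, GFP and RFP, with a log2 fold change of -0.21 ± 0.377, and -0.25 without GFP. For both genes the library 23-GOLGA8N was the highest of the 3 with the GOLGA8N label.

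ABL1 stood at 184 CPM in GOLGA8N 1, 186 in GOLGA8N 2 and 172 in 23-GOLGA8N, against 155, 245 and 209 CPM in Neg, GFP and RFP. The GOLGA8N values lay between those of Neg and RFP, and the log2 fold change was -0.01 ± 0.202 (0.12 without GFP). BCR had 7.82, 6.37 and 0.460 CPM in the GOLGA8N libraries, against 6.77, 21.8 and 4.03 CPM in Neg, GFP and RFP. Its log2 fold change of -0.84 ± 0.965 was 0.02 without GFP and 0.54 once the prefixed libraries were left out as well. CRKL, GAB2 and BCL2L1 had log2 fold changes of 0.14 ± 0.247, 0.27 ± 0.379 and 0.32 ± 0.293, and STAT5B one of -0.10 ± 0.505. Without GFP these were 0.15 for CRKL, 0.27 for GAB2, 0.14 for BCL2L1, whose level in GFP was the lowest of 17, and 0.05 for STAT5B.

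With LAPTM4B against Neg, GFP and RFP, in the same fit, 0 of the 9 members and 0 of 11916 genes were called, 0%, and 470 genes had an unadjusted p under 0.05 (3.94%, and 0 of the members); DESeq2 called 1 gene and limma-voom 0. STAT5A had 128, 159 and 129 CPM in LAPTM4B 1, LAPTM4B 2 and 22-LAPTM4B, against 168, 193 and 203 CPM in Neg, GFP and RFP. Again all 3 lay below, as they did for 6.45% of all genes tested (10.1% did not overlap in either direction), and the log2 fold change was -0.30 ± 0.213 (SE) with an edgeR adjusted p of 1.00 (-0.30 without GFP). Here too the separation holds in unscaled CPM only. Divided by TMM factors of 1.004 in LAPTM4B 2 and 1.1 in Neg, LAPTM4B 2 lay above Neg. Neg, GFP and RFP are shared with the comparison above, so both STAT5A values rest on the same 3 libraries. Those 3 averaged 188 CPM for STAT5A, against 161 CPM in the 6 unprefixed labels with 1 library each, both without TMM scaling.

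PIM1 had 154, 246 and 241 CPM in LAPTM4B 1, LAPTM4B 2 and 22-LAPTM4B, against 176, 213 and 229.6 CPM in Neg, GFP and RFP, with a log2 fold change of 0.19 ± 0.292 (0.20 without GFP). SOCS2 had 23.3, 66.4 and 43.1 CPM in the LAPTM4B libraries, against 43.4, 47.3 and 57.5 CPM in Neg, GFP and RFP, with a log2 fold change of -0.04 ± 0.373 (-0.07 without GFP). The LAPTM4B libraries spread around the others for both genes. The remaining log2 fold changes were -0.58 ± 0.953 for BCR (0.27 without GFP), -0.07 ± 0.201 for ABL1 (0.06 without GFP), -0.04 ± 0.246 for CRKL, 0.16 ± 0.377 for GAB2, -0.32 ± 0.503 for STAT5B and 0.32 ± 0.292 for BCL2L1. Without GFP the last 4 were -0.03 for CRKL, 0.16 for GAB2, -0.17 for STAT5B and 0.14 for BCL2L1. Of the 9 members 3 were higher, against 51.9% of all genes, with a median log2 of -0.04, against 0.02 over all.

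**Figure D3:**
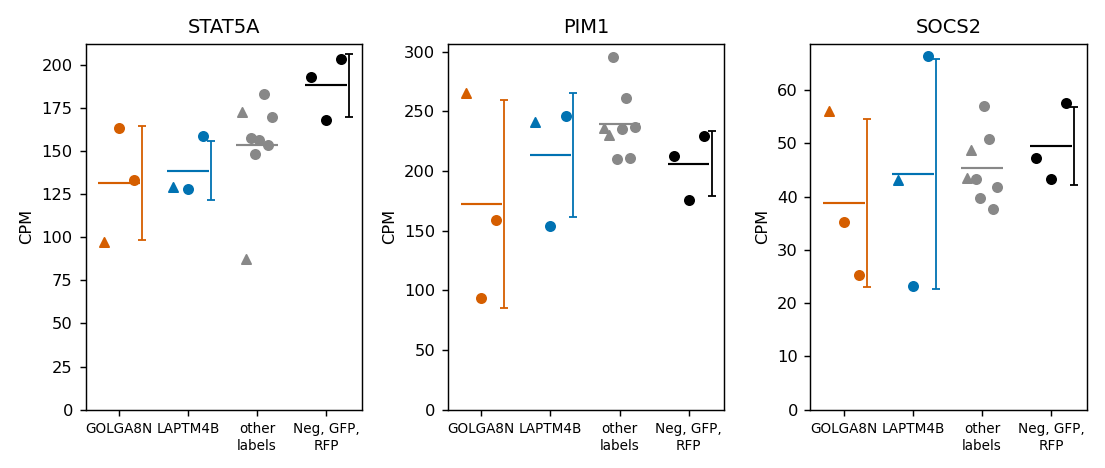
Levels of STAT5A, PIM1 and SOCS2 in CPM by group, 1 point per library, with triangles for the 4 libraries with a number before the gene name, a line at the mean, and an SD bar for the groups of 3 (the other labels have 1 library each and no SD). For STAT5A the GOLGA8N and LAPTM4B points lie below the 168 CPM of Neg, while for PIM1 both groups, and for SOCS2 the LAPTM4B libraries, reach to either side of Neg, GFP and RFP. The SOCS2 points of GOLGA8N all lie below RFP, at 57.5 CPM. STAT5A points of the other labels run from 87.1 to 183 CPM, to either side of Neg. The CPM shown are not TMM-scaled.

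GOLGA8N against LAPTM4B gave 0 calls among the 9 members and 1 among 11916 genes, 0.00839%. At an unadjusted p under 0.05 there were 0 members and 2.04% of all genes. The members' groups overlapped for 9 of 9, where 8.35% of all genes tested did not overlap. The log2 fold changes ran from -0.30 ± 0.290 for PIM1 to 0.22 ± 0.494 for STAT5B. BCR was at -0.25 ± 0.934, and STAT5A at -0.06 ± 0.212. The adjusted p was 1.00 for all 9 by edgeR's quasi-likelihood test. Of the 9, 4 were higher, against 48.4% of all genes.

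The 4 libraries with a number before the gene name were set against the 13 without, over 12319 genes. ARSF and CTPS2 occur only with a number, and Neg, GFP, RFP and the other single labels only without. For these, prefix and plasmid cannot be told apart. GOLGA8N and LAPTM4B each have 1 prefixed library, while Neg, GFP and RFP are all unprefixed. Over all genes 35 were called, 0.284%, with 29 higher and 6 lower; that count was 2 without 22-LAPTM4B, 7 without 23-GOLGA8N, 11 without 21-CTPS2 and 29 without 20-ARSF. By comparison 0 of the 9 members were called and 1 had an unadjusted p under 0.05, against 9.36% of all genes. That member was STAT5A, at 97.5, 129, 172 and 87.1 CPM in 23-GOLGA8N, 22-LAPTM4B, 20-ARSF and 21-CTPS2, against 128 to 203 CPM in the 13 unprefixed libraries. The 2 lowest of the 17 libraries, 21-CTPS2 and 23-GOLGA8N, were prefixed, and 20-ARSF lay well inside the unprefixed range. The means were 122 ± 38.3 CPM in prefixed libraries and 163 ± 21.4 CPM in unprefixed ones (SD, n = 4 and 13), and the log2 fold change was -0.39 ± 0.148 with an edgeR adjusted p of 0.370. It was -0.60 without 20-ARSF (adjusted p 0.0936) and -0.25 without 21-CTPS2 (adjusted p 0.786). Within the GOLGA8N and LAPTM4B libraries, with the plasmid gene as a term, it was -0.34 ± 0.201.

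The other 8 members had unadjusted p values above 0.05. ABL1 averaged 195 ± 18.0 CPM in prefixed libraries and 175 ± 31.9 CPM in unprefixed ones, CRKL 149 ± 17.4 CPM in prefixed and 127 ± 21.7 CPM in unprefixed libraries, and PIM1 243 ± 15.3 CPM in prefixed and 209 ± 52.9 CPM in unprefixed libraries. Their log2 fold changes were 0.18 ± 0.134, 0.24 ± 0.147 and 0.23 ± 0.180, and those of GAB2, BCL2L1 and SOCS2 were 0.33 ± 0.238, 0.18 ± 0.187 and 0.15 ± 0.211. BCR and STAT5B were at -0.65 ± 0.574 and -0.08 ± 0.325. Of the 9 members 6 were higher, against 47.8% of all genes tested, and the median log2 was 0.18, against -0.02 over all.

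Other cell markers were read beside the prefix. The 6 fibroblast markers summed to between 20.7 and 38.1 CPM in prefixed libraries, with COL3A1, DCN, LUM and PDGFRB at 0 reads, and to between 40.0 and 64.3 CPM in unprefixed ones, with LUM and PDGFRB at 0 reads. Nearly all of that sum was COL1A2, with 28.5 ± 6.72 CPM in prefixed libraries and 48.3 ± 8.11 CPM in unprefixed ones. Of the 13 erythroid markers, 6 were higher and 7 lower in prefixed libraries, with a median log2 of -0.02, and 1 was called: HBE1, embryonic globin, with 813 ± 188 CPM in prefixed libraries and 459 ± 87.0 CPM in unprefixed ones (log2 0.83 ± 0.157, edgeR adjusted p 0.0191). The 6 T-lymphoid markers summed to between 42.1 and 92.0 CPM in prefixed libraries and to between 38.6 and 123 CPM in unprefixed ones, with CD3E, CD2 and CD8A at 0 reads in both. CD3G had 0.812 ± 0.993 CPM in prefixed libraries and 5.71 ± 4.82 CPM in unprefixed ones (log2 -2.63 ± 0.884, edgeR adjusted p 0.267), and CD3D was at -0.16 ± 0.263. The 8 monocyte and granulocyte markers summed to between 18.3 and 42.7 CPM in prefixed libraries, with MPO at 0 reads. In unprefixed ones they summed to between 20.8 and 83.7 CPM. The 83.7 CPM was that of GFP, and the next highest unprefixed library, Neg, had 36.1 CPM. The part of any of these in the STAT5A value was not tested. RNA here comes from bulk samples, in which fewer cells of a type and less RNA per cell cannot be told apart.

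**Figure D4:**
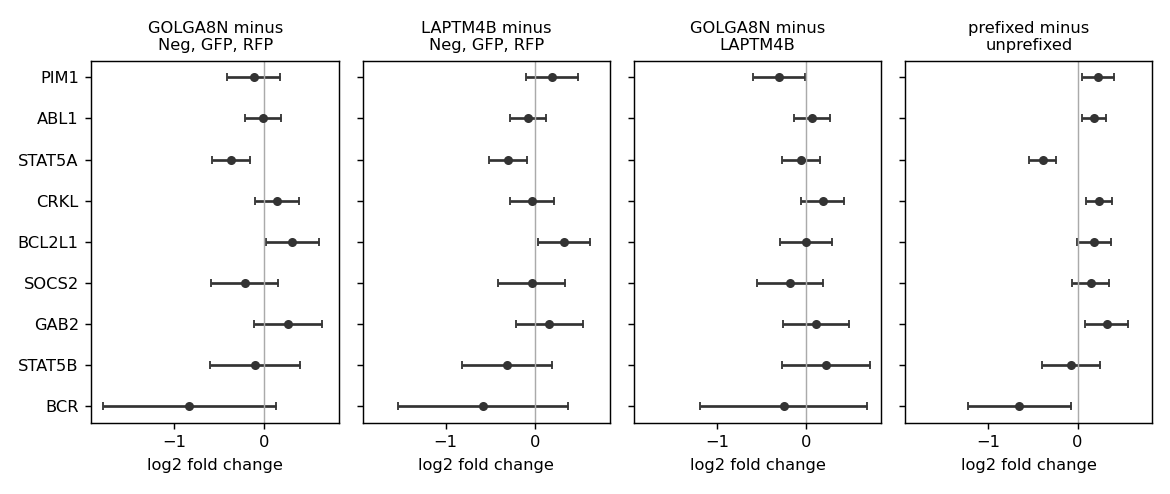
Log2 fold change of the 9 tested members with its SE, by edgeR, in each of the 4 comparisons, the group named first in each panel over the group named second. Bars are 1 SE to either side. The value farthest from 0 relative to its SE is STAT5A in prefixed over unprefixed libraries, at -0.39 ± 0.148.

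Genes around the members were counted in the same way. Among 19 tested adaptors and relatives, 16 genes of the RAS-MAPK pathway, 19 of PI3K-AKT, 14 other STAT targets, 10 of the MYC network, 20 MYC targets, 11 of the BCL2 family and 5 neighbours of the fusion genes, 0 were called between prefixed and unprefixed libraries, against 0.284% of all genes. An unadjusted p under 0.05 was found for 7 of the MYC targets, 2 of the STAT targets, 1 each of the RAS-MAPK, PI3K-AKT, BCL2 and neighbour lists, and 0 of the adaptors and the MYC network, against 9.36% of all genes tested. Between GOLGA8N and Neg, GFP and RFP 0 were called as well by edgeR, against 0.0168%, and the unadjusted counts ran from 0 to 2 per list, against 5.68% of all genes tested.

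Among the STAT targets MCL1, a survival protein of the BCL2 family, had the lowest p between prefixed and unprefixed libraries, with 405 ± 13.5 CPM in prefixed libraries and 277 ± 55.3 CPM in unprefixed ones. Its log2 fold change was 0.56 ± 0.134, its groups did not overlap, where 0.357% of all genes tested did not, and its edgeR adjusted p was 0.0630. BCL6, a transcriptional repressor, had 18.6 ± 6.82 CPM in prefixed libraries and 4.19 ± 4.20 CPM in unprefixed ones (2.12 ± 0.534, adjusted p 0.0830). CISH, a SOCS-family inhibitor, had 41.9 ± 5.64 CPM in prefixed libraries and 30.9 ± 10.5 CPM in unprefixed ones (0.46 ± 0.238, adjusted p 0.566). Of the 14, 8 were higher and 6 lower, with a median log2 of 0.09. In GOLGA8N libraries MCL1 had 346 ± 55.6 CPM, against 252 ± 58.9 CPM in Neg, GFP and RFP (0.59 ± 0.216, edgeR adjusted p 0.771).

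Of the 20 MYC targets, 6 were higher and 14 lower in prefixed libraries, with a median log2 of -0.12, where 47.8% of all genes tested were higher, and 7 of the 20 had an unadjusted p under 0.05, against 9.36% of all genes. The 3 with the lowest p were RRP9, SRM and BOP1. RRP9, a nucleolar RNA-processing factor, had 20.6 ± 8.40 CPM in prefixed libraries and 39.5 ± 14.9 CPM in unprefixed ones (-0.95 ± 0.296, edgeR adjusted p 0.217). SRM, spermidine synthase, had 294 ± 67.5 CPM in prefixed libraries and 412 ± 73.9 CPM in unprefixed ones (-0.47 ± 0.147, adjusted p 0.217). BOP1, a ribosome biogenesis factor, had 34.3 ± 6.78 CPM in prefixed libraries and 52.2 ± 6.62 CPM in unprefixed ones (-0.58 ± 0.183, adjusted p 0.235). MAX, the partner of MYC, had 60.4 ± 14.6 CPM in prefixed libraries and 78.4 ± 16.8 CPM in unprefixed ones (-0.38 ± 0.188, adjusted p 0.537). Against these, the sum of MYC with ENST00000652288.1 had 26.6 ± 9.10 CPM in prefixed libraries and 23.5 ± 7.22 CPM in unprefixed ones, with a log2 fold change of 0.18 ± 0.276 (edgeR adjusted p 0.926). In the other comparisons that sum gave 0.07 ± 0.486 for GOLGA8N and 0.43 ± 0.480 for LAPTM4B, each against Neg, GFP and RFP.

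In the BCL2 family BCL2L11, which encodes the death-promoting protein BIM, had 6.56 ± 2.80 CPM in prefixed libraries and 14.2 ± 3.72 CPM in unprefixed ones (-1.10 ± 0.382, edgeR adjusted p 0.294). BAX, a pore-forming death protein, had 250.4 ± 91.1 CPM in GOLGA8N libraries and 169 ± 58.5 CPM in Neg, GFP and RFP (0.68 ± 0.269, adjusted p 0.821). BCL2 itself averaged 0.929 CPM over 17 libraries, against 307 CPM for MCL1 and 79.7 CPM for BCL2L1, none of them divided by length. FOXO3, a transcription factor held out of the nucleus by AKT, had 25.7 ± 5.44 CPM in prefixed libraries and 12.5 ± 4.90 CPM in unprefixed ones (1.07 ± 0.313, adjusted p 0.170). NUP214, a neighbour of ABL1, had 125 ± 11.1 CPM in prefixed libraries and 160 ± 26.4 CPM in unprefixed ones (-0.32 ± 0.135, adjusted p 0.426).

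Among the adaptors, SOS1, the exchange factor that activates RAS, had 20.6 ± 6.76 CPM in GOLGA8N libraries and 7.10 ± 6.95 CPM in Neg, GFP and RFP (1.51 ± 0.606, edgeR adjusted p 0.821). NF1, which turns RAS off, had 20.4 ± 12.5 CPM in GOLGA8N libraries and 6.99 ± 4.52 CPM in Neg, GFP and RFP (1.51 ± 0.635, adjusted p 0.848). The kinase BRAF had 23.2 ± 1.53 CPM in GOLGA8N libraries and 12.3 ± 2.90 CPM in Neg, GFP and RFP (1.03 ± 0.481, adjusted p 0.872). SOS1 and NF1 each fell to 1.82 CPM in their lowest of the 17 libraries. In GFP the floor of 3 reads corresponds to 5.45 CPM. For SOS1, NF1 and BRAF no value without GFP is given. In prefixed libraries the closest relatives of the members' kinase and adaptor, ABL2 and CRK, had log2 fold changes of 0.51 ± 0.325 and 0.46 ± 0.295.

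Members were set against each other over 16 libraries, without GFP, on the log2(CPM + 1) scale. Of 36 pairs of the 9 members, 24 were positively correlated, with a median Pearson r of 0.153 and a range from -0.43 to 0.623. PIM1 and SOCS2 had the highest, with r = 0.623 (permutation p 0.0123, adjusted over the 36 pairs 0.442) and Spearman's rho of 0.612 (permutation p 0.0132). Without GOLGA8N 1 and LAPTM4B 1, the 2 libraries farthest from the median of PIM1, r was 0.641, and among the 12 unprefixed libraries it was 0.600. PIM1 and SOCS2 were not the highest pair under these settings. STAT5A and SOCS2 had r = 0.733 among the 12 unprefixed libraries, against 0.124 over the 16. CRKL and SOCS2 had r = 0.663 without LAPTM4B 2 and GOLGA8N 2, the 2 libraries farthest from the median of CRKL, against 0.341 over the 16. STAT5B and SOCS2 had r = 0.551 (permutation p 0.0306) and rho of 0.553 (permutation p 0.0274), with r = 0.415 once E7 and GOLGA8N 2 were left out. After adjustment 0 of 36 pairs passed, and all members share their libraries' depth and normalization.

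**Figure D5:**
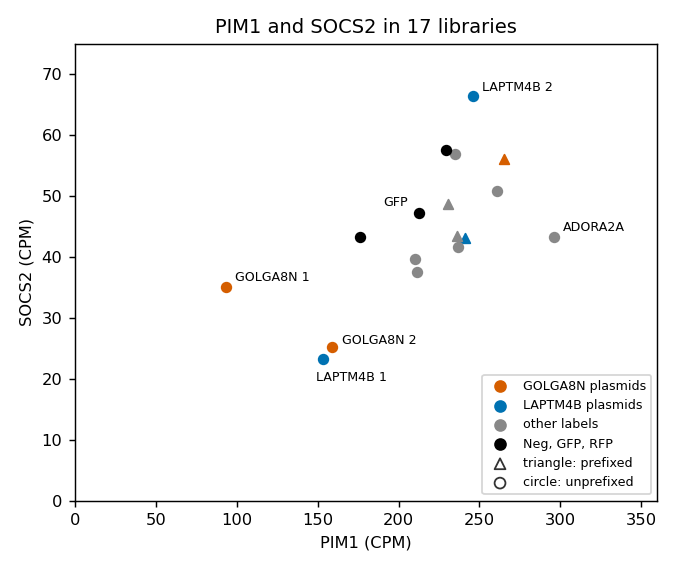
SOCS2 against PIM1, both in CPM, 1 point per library, coloured by plasmid label, with triangles for the 4 libraries with a number before the gene name. GOLGA8N 1, GOLGA8N 2 and LAPTM4B 1 lie at the low end of both genes, and LAPTM4B 2 has the highest SOCS2, at 66.4 CPM.

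By the same scale, the gene most like each member among 4992 genes averaging 20 CPM or more was found over the 16 libraries. Pearson's r was 0.812 for ABL1 with MON1B, 0.827 for CRKL with HIST1H2BN, 0.828 for GAB2 with TNFAIP8, 0.833 for STAT5A with MFSD2B and 0.704 for STAT5B with GMPS. It was 0.808 for PIM1 with DCAF15, 0.781 for BCL2L1 with DCAF11, 0.817 for SOCS2 with NSMAF and 0.865 for BCR with EIF3B. These are the highest of 4992 values each and serve as description only; BCR also had r = 0.613 with log depth, and MYC, with reads in 4 libraries, was too sparse to be read this way.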

How the data were processed

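K562 RNA was measured in 17 libraries by 3′ tag sequencing (QuantSeq), primed with oligo-dT that carried unique identifiers of 12 bases, per the labels. The deposited files list 228297 transcripts each, with estimated counts that can be fractional and TPM, both made by the authors. Per the file headers, the columns are those Salmon writes. Processing notes from the submitters list Salmon 0.7.2, STAR, featureCounts, UMI-tools and GRCh38, and do not state whether identifiers were collapsed.

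Estimated counts were summed by gene with the GENCODE annotation supplied for GRCh38 (205336 transcripts matched; the unmatched held 3.32% to 3.60% of reads) and rounded for tests. edgeR 4.0.16 (R 4.3.3) fitted the GOLGA8N, LAPTM4B and Neg, GFP and RFP libraries together, and prefixed against unprefixed libraries over 17, with TMM scaling, a filter on low counts and robust quasi-likelihood; an SE is the log2 fold change over the root of F. A call is an adjusted p under 0.05, Benjamini-Hochberg over all genes tested. limma 3.58.1, DESeq2 1.42.0, other scalings, filters, reference sets and left-out libraries were alternatives. Correlations used 100000 permutations. The fits were tested on simulated data.

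The members and lists were chosen with earlier results of these data known. Besides the members, named genes are those called and up to 3 a list with the lowest p in the prefixed and GOLGA8N comparisons, of which the text gives the main ones, and the most like gene of each member. COL1A2, BCL2 and AC091057.3 were named after their values were seen, as were the overlapping and pooled transcripts.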

Additional observations from a re-analysis of the deposited data

Results flagged for a closer look

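MYC in 22-LAPTM4B stood apart from the other 3 prefixed libraries by the gap between their values: it had 0.531 CPM, from an estimated 1.84 reads, and the other 3 had 0 reads. Chance flags about 1 in 20 groups of this size where values vary continuously. That rate does not hold here: with the other 3 libraries at 0 reads, any value above 0 is flagged. The value also lies below the floor of 3 reads.

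Reads on ENST00000652288.1, which has no gene in the annotation used and enters no member's level, came to 1198.8 over 17 libraries. They were present in 17 of 17 libraries, from 11.2 to 36.3 CPM, and shared fractional counts with MYC-207.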

How the results depend on the processing

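No member was called in any of the 696 values with an adjusted p, main and alternative, of the 36 member results (DESeq2 gave none for 2 more, BCR and STAT5B in prefixed over unprefixed libraries); the lowest adjusted p, 0.0936, was that of STAT5A in prefixed over unprefixed libraries without 20-ARSF. Of the members' 662 log2 fold changes under alternatives, 585 kept their direction and 77 turned it, with 0 calls among them. STAT5A kept a negative log2 fold change under every alternative run in GOLGA8N and in LAPTM4B, each over Neg, GFP and RFP, and in prefixed over unprefixed libraries. Depth limits BCR, with 316 reads over 17 libraries, while the level of MYC turns on the annotation, and groups of 3 libraries limit the precision of all members. The cause of the changes below was not tested.

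Genes called in GOLGA8N over Neg, GFP and RFP were 2 as reported, 14 by DESeq2, 0 by limma-voom, 1 with RLE factors, 1 with library totals, 42 with no filter, 0 with at least 10 reads in every library but GFP, 18 with 17 libraries in the fit, 7 with unprefixed libraries only, 6 with the prefix as a term, 4 against all 14 other libraries, and 11 without prefixed libraries and GFP; leaving out 1 library gave 1 to 6. In LAPTM4B over Neg, GFP and RFP they were 0 as reported, 1 by DESeq2, 25 with no filter, 4 with 17 libraries, 2 with unprefixed libraries only and 3 without GFP as well, and 0 to 1 leaving out 1 library. In GOLGA8N over LAPTM4B they were 1 as reported, 2 by DESeq2, 0 by limma-voom, 9 with no filter, 0 with at least 10 reads, 4 with 17 libraries, 2 with unprefixed libraries only, with GFP or without it, and 1 to 3 leaving out 1 library. In prefixed over unprefixed libraries they were 35 as reported, 124 by DESeq2, 55 by limma-voom, 557 with no filter, 16 with the group as a term and 73 within the GOLGA8N and LAPTM4B libraries; leaving out 1 prefixed library gave 2 (without 22-LAPTM4B) to 29.

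GOLGA8N and LAPTM4B libraries titled 1 and 2 share only a number: their differences correlated with r = 0.150 across 5009 genes. The fit with that number as a replicate block called 2 genes, as did the fit without the block. In these 2 fits, for GOLGA8N over LAPTM4B, BCR was at 0.15 with the block and 0.16 without, GAB2 at -0.24 with it and -0.24 without, STAT5A at 0.082 with it and 0.086 without, STAT5B at -0.034 with it, and BCL2L1 at 0.027 without it.

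Directions that turned elsewhere, on the log2 scale, were these. For GOLGA8N over Neg, GFP and RFP, ABL1 went to 0.085 by limma-voom, 0.0064 with no filter, 0.0034 with 17 libraries, 0.035 with unprefixed libraries, 0.044 against 14 libraries and 0.15 with unprefixed libraries without GFP. CRKL went to -0.0076 with library totals, -0.089 with unprefixed libraries, -0.083 when GFP was left out too, and -0.11 with the prefix as a term. GAB2 went to -0.19, -0.20 and -0.051 under the last 3 of these settings. BCL2L1 was at -0.051 against 14 libraries, and BCR at 0.54 with unprefixed libraries without GFP. For LAPTM4B over Neg, GFP and RFP, limma-voom gave 0.095 for BCR and 0.0019 for ABL1, and unprefixed libraries without GFP gave 0.38 for BCR. The prefix as a term gave -0.081 for GAB2 and -0.046 for PIM1, and 14 libraries gave -0.0053 for PIM1, -0.037 for BCL2L1 and 0.0059 for SOCS2. For GOLGA8N over LAPTM4B, BCL2L1 was at 0.0015 by DESeq2, 0.0017 with RLE factors, 0.0012 with the prefix as a term, 0.029 with unprefixed libraries and 0.032 without GFP as well. Unprefixed libraries gave 0.16 for BCR, -0.24 for GAB2 and 0.085 for STAT5A, and without GFP 0.16, -0.23 and 0.088; limma-voom gave -0.0068 for GAB2. STAT5B in prefixed over unprefixed libraries was at 0.033 within the GOLGA8N and LAPTM4B libraries.

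Leaving out 1 library at a time turned these. For GOLGA8N over LAPTM4B the ranges were -0.018 to 0.20 for ABL1, -0.20 to 0.24 for BCL2L1, -0.77 to 0.27 for BCR, -0.056 to 0.46 for CRKL, -0.35 to 0.32 for GAB2, -0.53 to 0.21 for SOCS2 and -0.26 to 0.11 for STAT5A. For GOLGA8N over Neg, GFP and RFP they were -0.16 to 0.12 for ABL1, -1.35 to 0.015 for BCR, -0.088 to 0.31 for CRKL, -0.19 to 0.66 for GAB2, -0.56 to 0.18 for PIM1, -0.56 to 0.025 for SOCS2 and -0.27 to 0.16 for STAT5B. For LAPTM4B over Neg, GFP and RFP they were -0.23 to 0.056 for ABL1, -0.99 to 0.27 for BCR, -0.32 to 0.15 for CRKL, -0.12 to 0.55 for GAB2 and -0.40 to 0.27 for SOCS2. For prefixed over unprefixed libraries STAT5B ran from -0.17 to 0.026. The mean of MYC, 0.486 CPM, was 24.2 CPM with ENST00000652288.1, an alternative added after seeing the data, as was that without prefixed libraries and GFP, and ABL1 was at rank 2 by CPM and 5 by TPM.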
